A study of Mus musculus with 21 samples.

Results

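Sln, Myl4, Myl7, Bmp10, Dkk3 and Stard10, 6 of the 23718 genes with reads in these mouse heart libraries, were followed because they mark the atria of the heart, and their levels show which libraries carry atrial transcripts. They were taken by gene name, and 5 of the 6 passed the filter on low counts that left 15216 genes for testing. Bmp10 did not pass. RNA was sequenced from 21 mouse hearts. All mice were male C57BL/6NJ, 8 to 10 weeks old when they were assigned for 10 weeks to chow or to a high-fat diet (HFD) with 60% of its energy from fat. They received a retro-orbital injection of an adeno-associated virus carrying renin (Renin) or a null vector, which the sample labels call novirus, and were collected 6 weeks later. The groups held 4 chow novirus, 6 chow Renin, 6 HFD novirus and 5 HFD Renin hearts. The chamber sampled and the promoter of the vector were not given in the sources used here. High-fat diet and renin together stand for a heart failure in which the ejection fraction is preserved (HFpEF), and the question was how each hit and both together change the heart's transcripts.

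The atria are the thin-walled receiving chambers of the heart, and their muscle cells make a set of contractile and secreted proteins that adult ventricular muscle makes little of. Sln encodes sarcolipin, a small membrane protein that inhibits the sarcoplasmic reticulum calcium pump, as phospholamban does in the ventricle. Myl7 and Myl4 encode the atrial regulatory and essential light chains of myosin, whose ventricular counterparts are Myl2 and Myl3. Bmp10 encodes a secreted ligand of the bone morphogenetic protein (BMP) family that acts on endothelial cells. Dkk3 encodes a secreted glycoprotein of the Dickkopf family, whose better-known members inhibit Wnt signalling. Stard10 encodes a phospholipid transfer protein with a START domain, and is made in many tissues.

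The coding sequence of Sln is shown because it is the shortest product among the 6 genes, and because its transcript was close to absent from most libraries. It lies on the plus strand at chr9:53853473-53853568 (GRCm38), is 96 bases long and sits within a transcript of 1318 bases. Capitals mark the start and stop codons.
Sln coding sequence: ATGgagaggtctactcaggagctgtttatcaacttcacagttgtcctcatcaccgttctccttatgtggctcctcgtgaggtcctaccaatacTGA

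The 250 bases before the start sites of Myl7 and Bmp10 are shown to set the gene of the 6 most abundant in the libraries high in atrial transcripts beside the least abundant. The window of Mybphl, an atrial gene outside the 6 whose level followed theirs most closely, is shown with them. The sequences are RefSeq's for GRCm38.p6, written 5′ to 3′ on the strand of the gene, and capitals mark matches to the motifs searched.
Myl7, chr11:5898783-5899032, minus strand: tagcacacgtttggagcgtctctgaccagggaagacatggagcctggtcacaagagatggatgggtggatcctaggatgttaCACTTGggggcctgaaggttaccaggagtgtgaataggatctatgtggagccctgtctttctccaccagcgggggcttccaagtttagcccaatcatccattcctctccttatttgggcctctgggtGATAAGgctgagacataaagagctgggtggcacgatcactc
Bmp10, chr6:87428744-87428993, plus strand: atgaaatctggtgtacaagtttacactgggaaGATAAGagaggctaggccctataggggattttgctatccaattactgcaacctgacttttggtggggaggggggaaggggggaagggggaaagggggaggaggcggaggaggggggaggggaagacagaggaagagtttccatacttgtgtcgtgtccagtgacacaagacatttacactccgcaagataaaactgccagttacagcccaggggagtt
Mybphl, chr3:108364661-108364910, plus strand: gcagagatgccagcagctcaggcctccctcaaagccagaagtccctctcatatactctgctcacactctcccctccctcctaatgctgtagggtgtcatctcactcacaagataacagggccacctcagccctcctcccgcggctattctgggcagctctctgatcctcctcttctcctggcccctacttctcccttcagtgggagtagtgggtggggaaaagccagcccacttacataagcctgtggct

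The motifs searched on both strands were GATAAG, read by GATA factors, AGGTGT, read by T-box factors, CAAGTG, read by NKX2 factors, and TATAAA, the TATA box. With positions counted back from the start site, Myl7 held GATAAG at -41 and CAAGTG, as its reverse complement CACTTG, at -168. Bmp10 held GATAAG at -218. Mybphl, Myl4 and Stard10 held none of the 4 motifs in these windows, and no match overlapped another. The windows of Myl4 and Stard10 lie before the start sites of transcripts other than Myl4-202 and Stard10-201, which hold most reads of these genes here, so they do not describe the start sites of those transcripts. Of 32817 promoter windows of the same length, 6.555% held GATAAG, 11.83% AGGTGT, 11.61% CAAGTG and 12.37% TATAAA. A match describes the letters and does not show that a factor binds there. Promoter entries were found for 4 of the 6 genes, without Sln and Dkk3.

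The 6 genes are protein coding and lie on 4 chromosomes (GRCm38). Sln (ENSMUSG00000042045) is at chr9:53850164-53854560 on the plus strand, and Bmp10 (ENSMUSG00000030046) at chr6:87428994-87437677 on the plus strand. The light chain genes share a chromosome but not a locus, with Myl4 (ENSMUSG00000061086) at chr11:104550663-104595753 on the plus strand and Myl7 (ENSMUSG00000020469) at chr11:5896637-5898782 on the minus strand. Stard10 (ENSMUSG00000030688) is at chr7:101317086-101346626 on the plus strand, and Dkk3 (ENSMUSG00000030772) at chr7:112116017-112159057 on the minus strand.

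Libraries held 18.7 to 29.3 M estimated reads, with 18.7 to 21.4 M in chow novirus and 22.8 to 29.3 M in the other groups. All libraries carried the defining markers of heart muscle: 9 of 9 genes made in both chambers, Myh6 and Tnnt2 among them, were detected, with no such marker at 0 reads in every library. Ventricular muscle was present in every library, with Myl2, the ventricular regulatory light chain, at 6116 to 10015 transcripts-per-million (TPM, a level corrected for transcript length). The labels number the libraries within a group, and p-values measure the spread between these libraries.

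In the atrial genes 5 libraries stood apart from the other 16: chow novirus 3, chow Renin 1 and 3, HFD novirus 3 and HFD Renin 3. They were set apart by Myl7 alone, after its values were seen, where the lowest of the 5 had 305 TPM and the highest of the 16 had 8.38 TPM. The division is a description of these libraries and received no test. Every group held at least 1 of the 5, and chow Renin held 2. Depth did not divide them, at 18.9 to 28.1 M reads in the 5 and 18.7 to 29.3 M in the 16. Comparisons of Myl4, Myl7, Dkk3 and Stard10 are therefore given with and without them. Sln passed the filter on low counts only with them, and Bmp10 did not pass it.

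**Figure D1:**
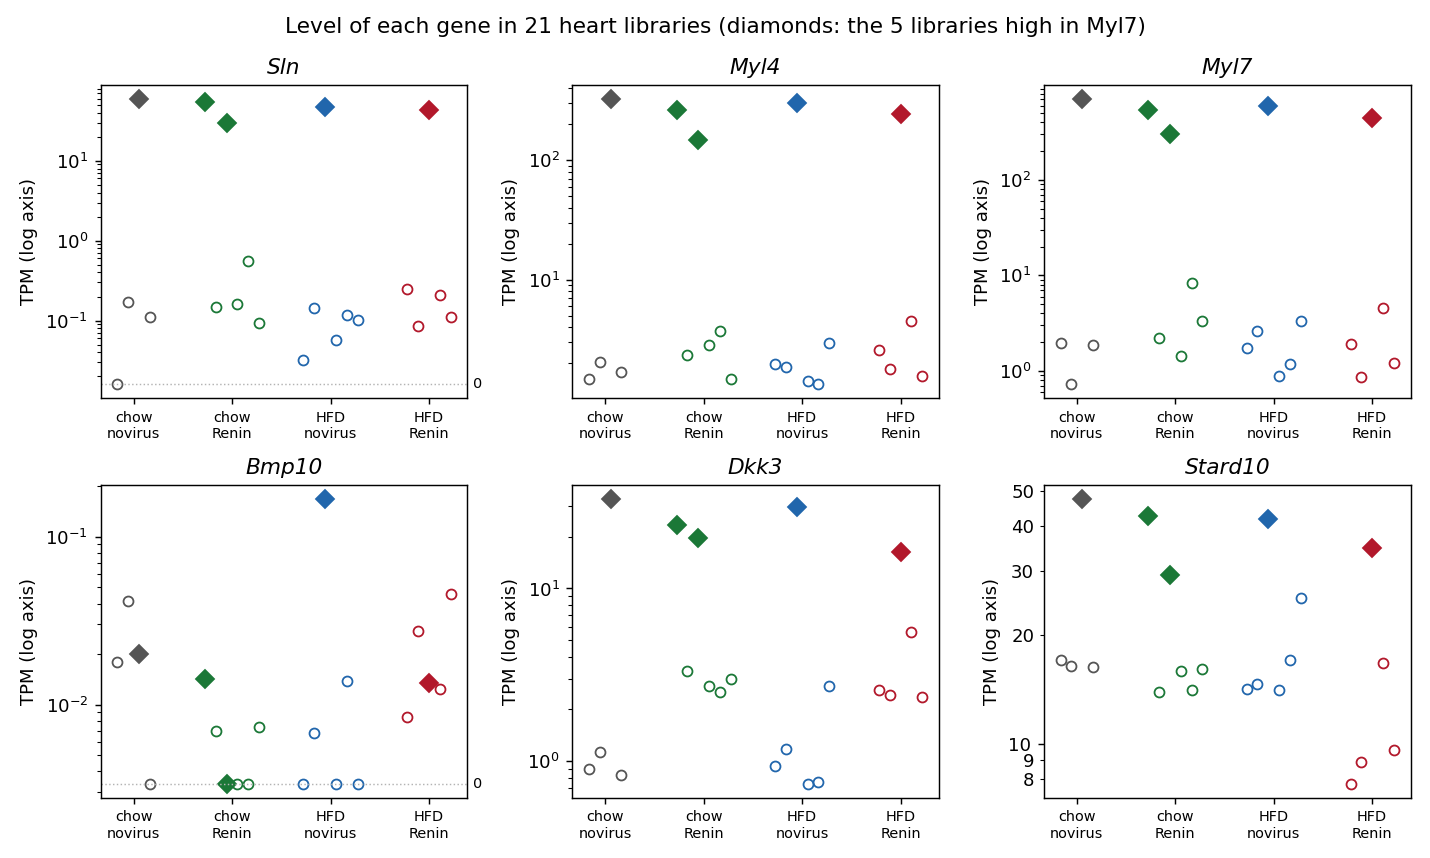
Level of each of the 6 genes (TPM, logarithmic axis) in each of the 21 libraries, by group, with the 5 libraries high in Myl7 marked. In Sln, Myl4, Myl7 and Dkk3 the 5 marked libraries sit above all others by 2.92-fold or more, in Stard10 by 1.16-fold, and in Bmp10 they do not separate.

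Of the 6 genes, Myl7, the atrial regulatory light chain, was the most abundant in the 5 libraries and had 5 to 76 reads in each of the others. In chow novirus the 4 libraries had 1.98, 0.732, 699.5 and 1.87 TPM in the order of their numbers, and in HFD Renin the 5 libraries had 1.93, 0.871, 442, 4.52 and 1.21 TPM. In chow Renin Myl7 ranged from 1.42 to 538 TPM with a median of 5.85, the second-highest library being at 305 TPM. In HFD novirus it ranged from 0.875 to 595 TPM with a median of 2.18. The 4 groups overlapped, and within each group the library or libraries named above lay apart from the rest. Their lowest level was 36.4-fold above the highest of the other 16, which was chow Renin 5. These are whole pieces of tissue, in which fewer cells of a type and less RNA per cell cannot be told apart.

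Myl4, the atrial essential light chain, separated the same 5 libraries, and Myl4 was not used to set them apart. Its levels in chow novirus were 1.49, 2.07, 323 and 1.70 TPM, and in HFD Renin 2.59, 1.80, 242, 4.55 and 1.56 TPM. In chow Renin it ranged from 1.47 to 262 TPM with a median of 3.29, and in HFD novirus from 1.35 to 298 TPM with a median of 1.92. The lowest of the 5, 146 TPM in chow Renin 3, was 32.2-fold above the highest of the 16, in HFD Renin 4. The transcript Myl4-202 carried most of the gene's reads, 94.6% in the 5 libraries together and 76.2% in the 16 together.

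Sln, which inhibits the calcium pump, had the widest gap of the 6 genes. Its levels in chow novirus were 0, 0.173, 59.0 and 0.110 TPM, and in HFD Renin 0.248, 0.0858, 42.6, 0.208 and 0.110 TPM. In chow Renin it ranged from 0.0921 to 53.9 TPM with a median of 0.356, and in HFD novirus from 0.0324 to 47.4 TPM with a median of 0.108. The 5 libraries held 920 to 1809 estimated reads of Sln, and the other 16 held 0 to 17. The lowest of the 5 was 53.8-fold above the highest of the 16, which was again chow Renin 5. In the library at 0, chow novirus 1, a count of 0 allows up to 3 reads, or 0.146 counts-per-million (CPM, not corrected for length), a limit that covers counting error only.

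Dkk3, the secreted Dickkopf family member, was present in all 21 libraries, and the 5 libraries were again the highest. Its levels in chow novirus were 0.898, 1.14, 33.0 and 0.829 TPM, and in HFD Renin 2.59, 2.42, 16.3, 5.58 and 2.34 TPM. In chow Renin it ranged from 2.53 to 23.2 TPM with a median of 3.15, and in HFD novirus from 0.742 to 29.6 TPM with a median of 1.05. The lowest of the 5 lay 2.92-fold above the highest of the 16, a smaller gap than for the light chains and Sln. Among the 16, the 3 chow novirus libraries were all below the 4 chow Renin libraries, as described further on.

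Stard10, the phospholipid transfer protein, had a high level throughout and the narrowest separation. Its levels in chow novirus were 17.1, 16.4, 47.5 and 16.3 TPM, and in HFD Renin 7.77, 8.92, 34.8, 16.7 and 9.60 TPM. In chow Renin it ranged from 13.9 to 42.6 TPM with a median of 15.95, and in HFD novirus from 14.04 to 41.8 TPM with a median of 15.8. The lowest of the 5, 29.3 TPM in chow Renin 3, was 1.16-fold above the highest of the 16, 25.2 TPM in HFD novirus 6. On the TMM-scaled CPM used for testing that ratio was 1.02, so the separation of Stard10 was slight. The transcript Stard10-201 carried 95.6% of its reads in the 5 libraries together and 93.4% in the 16 together.

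Bmp10, the BMP family ligand, was barely detected and did not separate the libraries. It had 54 reads over all 21 libraries, 29 of them in the 5 and 25 in the other 16. The highest level was 0.168 TPM, from 23 reads in HFD novirus 3, while chow Renin 3, another of the 5, was at 0. Levels in chow novirus were 0.0179, 0.0414, 0.0200 and 0 TPM, and in HFD Renin 0.00840, 0.0273, 0.0134, 0.0124 and 0.0458 TPM. They ranged from 0 to 0.0142 TPM in chow Renin and from 0 to 0.168 TPM in HFD novirus. In the 7 libraries at 0 the limit that a count of 0 allows was 0.115 to 0.140 CPM, so a difference between groups was not detectable at this depth.

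Over all tested genes, 83 of 15216 (0.545%) had all 5 libraries above all 16 on the TPM scale, and 1 was below. Of the 6 atrial genes, 5 were above, namely all but Bmp10, with Myl7 above by the way the libraries were set apart. Sln was among the tested genes only through these 5 libraries, since it did not pass the filter without them. The count is a description and no test. The same 5 of 6 were above on TMM-scaled CPM and in the authors' normalized gene matrix. The matrix values of these genes follow TPM within a library, so the matrix is not a separate scale.

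**Figure D2:**
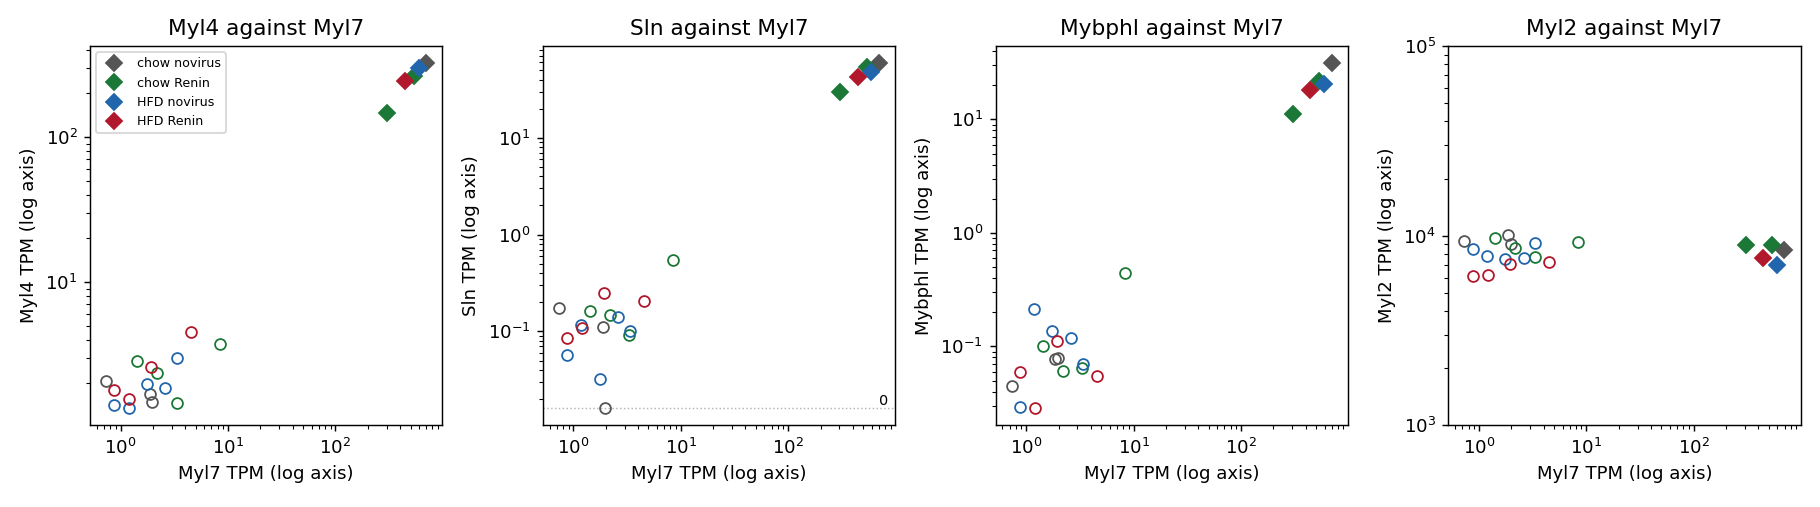
Level of Myl4, Sln, Mybphl and Myl2 (TPM, logarithmic axes, 1 panel each) against the level of Myl7 in the 21 libraries, with the 5 libraries high in Myl7 as filled diamonds and colours for the groups; a dotted line marks 0. The 5 libraries, at 305 TPM of Myl7 or more, also lie apart in Myl4, Sln and Mybphl, while in Myl2 they lie within the range of the other 16.

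Within the 5 libraries the order of the genes by length-corrected level was fixed: Myl7 was above Myl4, Myl4 above Sln, Sln above Stard10, Stard10 above Dkk3 and Dkk3 above Bmp10 in 5 of 5 libraries. Across the 5 libraries the ranges of Sln, Stard10 and Dkk3 overlapped, at 29.6 to 59.0, 29.3 to 47.5 and 16.3 to 33.0 TPM. In the other 16 the order differed, with Stard10 above Myl4, Myl7 and Dkk3 in 16 of 16 libraries. Myl4 was above Myl7 in 10 of these 16 and Dkk3 above Myl7 in 7 of them, so these neighbours had no fixed order. Myl7 was above Sln in 16 of 16.

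The 5 libraries differed among themselves in amount more than in proportion. Chow novirus 3 was the highest of them for Sln, Myl4, Myl7, Dkk3 and Stard10. Chow Renin 3 was the lowest for 4 of these 5 genes, and HFD Renin 3 was the lowest for Dkk3. The ratio of Myl4 to Myl7, both in TPM, kept within 0.462 to 0.546, with a coefficient of variation (CV) of 6.42% over the 5 libraries. The ratio of Sln to Myl7 lay between 0.0796 and 0.1002 with a CV of 9.81%. Dkk3 relative to Myl7 spread more widely, from 0.0368 to 0.0644 with a CV of 21.2%. In the 16 the CVs of these 3 ratios were 51.7, 74.3 and 63.1%, on far fewer reads of Myl7 (5 to 76).

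Ventricular transcripts did not separate the 5 libraries. Myl2, the ventricular regulatory light chain, was at 6973 to 8955 TPM in the 5 and at 6116 to 10015 TPM in the 16, and the ranges overlapped. Myl7 amounted to 3.42 to 8.54% of Myl2 in the 5 and to 0.00787 to 0.0906% in the 16. None of 10 ventricular genes had all 5 libraries below or above all 16.

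The genes named for their likeness to the 6 genes were those whose log2 CPM, centred on its group mean, followed most closely the mean of the 5 tested genes. Mybphl, an atrial homologue of myosin binding protein H, had the highest Pearson r over 21 libraries, 0.98. It was at 11.2 to 31.3 TPM in the 5 libraries and at 0.0286 to 0.440 TPM in the 16, a gap of 25.4-fold between the nearest libraries. Among the 16 its highest level was in chow Renin 5, the library that was also highest of the 16 for Sln and Myl7. The next were Alox8 (r of 0.95), Chad (0.94), Tbc1d1 (0.94), Tmem163 (0.94), Comp (0.93), Car3 (0.93), Cacna1h (0.92), Cpne5 (0.92) and Cacna2d2 (0.92). These values rest on the 5 libraries: over the other 16, r was 0.35 for Mybphl and between -0.00335 and 0.60 for the other 9.

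Singly, Sln was followed by Mybphl (r of 0.99), Alox8 and Tbc1d1, and Myl4 by Mybphl (0.98), Alox8 and Chad. Myl7 was followed by Mybphl (0.98), Tmem163 and Alox8. Dkk3 had other companions, Cytl1 (0.96), Comp (0.96) and Sertad4 (0.96), and over the 16 libraries alone its r with Cytl1 was 0.89. Stard10 was followed by Sfrp5 (0.93), Cacna1h (0.93) and Lmntd1 (0.93), and over the 16 alone its r with Sfrp5 was 0.87. All are descriptions of likeness over libraries that share a tissue source.

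Of 18 further genes listed for the atria, 4 had all 5 libraries above all 16. These were Mybphl, the kinase genes Sbk2 (6.70 to 13.6 against 0.374 to 6.16 TPM) and Sbk3 (7.03 to 16.1 against 0.145 to 3.78 TPM), and Hamp, the gene of hepcidin (8.12 to 25.1 against 0 to 0.251 TPM). Nppa, the atrial natriuretic peptide, which stressed ventricles also make, did not separate them, at 349 to 789 TPM in the 5 and 38.3 to 1545 TPM in the 16. Beside the atrial genes, 3 of 6 adipose markers also had all 5 above all 16, Adipoq (0.628 to 2.16 against 0 to 0.452 TPM), Cfd (1.45 to 23.7 against 0 to 0.689 TPM) and Lep. Lep had 21 reads over all libraries and was at 0 reads in 15, at 0.0101 TPM or more in the 5 and at most 0.00881 TPM in the 16. The summed level of the 6 adipose markers was 26.9 to 47.1 TPM in the 5 and 17.3 to 30.4 TPM in the 16. Most of the sum in the 16 was Cidea, which did not separate the libraries, at 18.4 to 28.3 against 16.7 to 29.8 TPM. Adipoq was at 0 reads in 6 libraries and Cfd in 4. Of the 9 sinoatrial and conduction markers and the 5 of great vessel smooth muscle none had all 5 above all 16. Their summed levels were 34.5 to 44.5 against 21.9 to 36.2 TPM and 90.0 to 208 against 41.6 to 150 TPM, and the part of these tissues in the result was not tested.

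**Figure D3:**
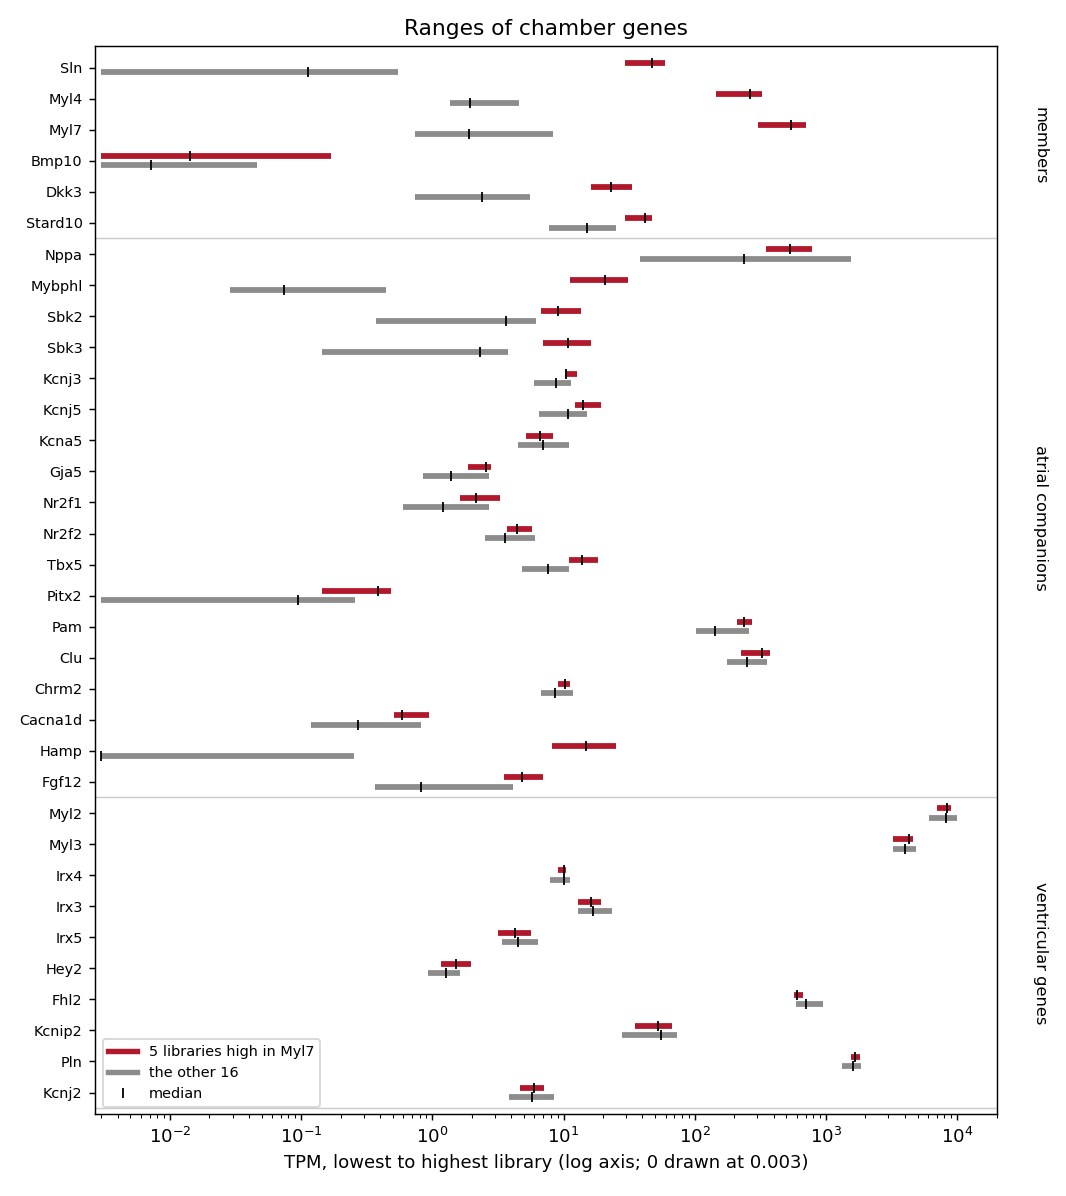
Lowest to highest level (TPM, logarithmic axis) of atrial and ventricular genes in the 5 libraries high in Myl7 and in the other 16. The ranges of Sln, Myl4, Myl7 and Mybphl lie apart, and those of Myl2 and Nppa overlap.

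With all 21 libraries, none of the 5 tested genes was called in any of the 6 comparisons. Across the genome edgeR's quasi-likelihood test at an adjusted p under 0.05 called 13.5% of genes in chow Renin against chow novirus, 0.0657% in HFD novirus against chow novirus and 8.29% in HFD Renin against chow novirus. It called 11.1% in HFD Renin against HFD novirus, 22.6% in HFD Renin against chow Renin and 10.4% for the interaction of diet and renin. Against that background 0 of 30 tests of the 5 genes were called, and 0 of 30 had an unadjusted p under 0.05. DESeq2 and 3 fits with limma gave 0 calls and 0 unadjusted p under 0.05 for these genes.

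For Sln, Myl4 and Myl7 the log2 fold changes over the 6 comparisons lay between -0.90 and 0.28, with standard errors (SE) of 1.86 to 2.93. The error was several times the difference, so that a change of these 3 genes was not detectable with the 5 libraries among the 21. For Dkk3 the log2 fold changes were -0.56 to 0.02 with SEs of 1.16 to 1.69. For Stard10 they were -0.66 to -0.07 with SEs of 0.45 to 0.66, and the lowest adjusted p (edgeR) was 0.448, in HFD Renin against HFD novirus. The median log2 fold change of the 5 genes was -0.26 in chow Renin, -0.60 in HFD novirus and -0.66 in HFD Renin, each against chow novirus, beside -0.03, 0.01 and 0.01 over all genes. It was -0.07 in HFD Renin against HFD novirus and -0.48 against chow Renin, beside -0.01 and 0.02 over all genes.

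The authors' deposited table of their own HFD with virus comparison, whose reference group it does not state, gave log2 changes between -0.08 and 0.01 for all 6 genes. In the authors' deposited table these were -0.08 for Stard10 (adjusted p 0.498), -0.02 for Dkk3 (0.844), -0.01 for Myl7 (0.856), -0.01 for Myl4 (0.887) and -0.01 for Sln (0.898). For Stard10 edgeR gave -0.66 in HFD Renin against chow novirus and -0.59 against HFD novirus. The column header does not say whether the authors' method pulled the values towards 0, so their size cannot be compared with the edgeR log2 fold changes.

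**Figure D4:**
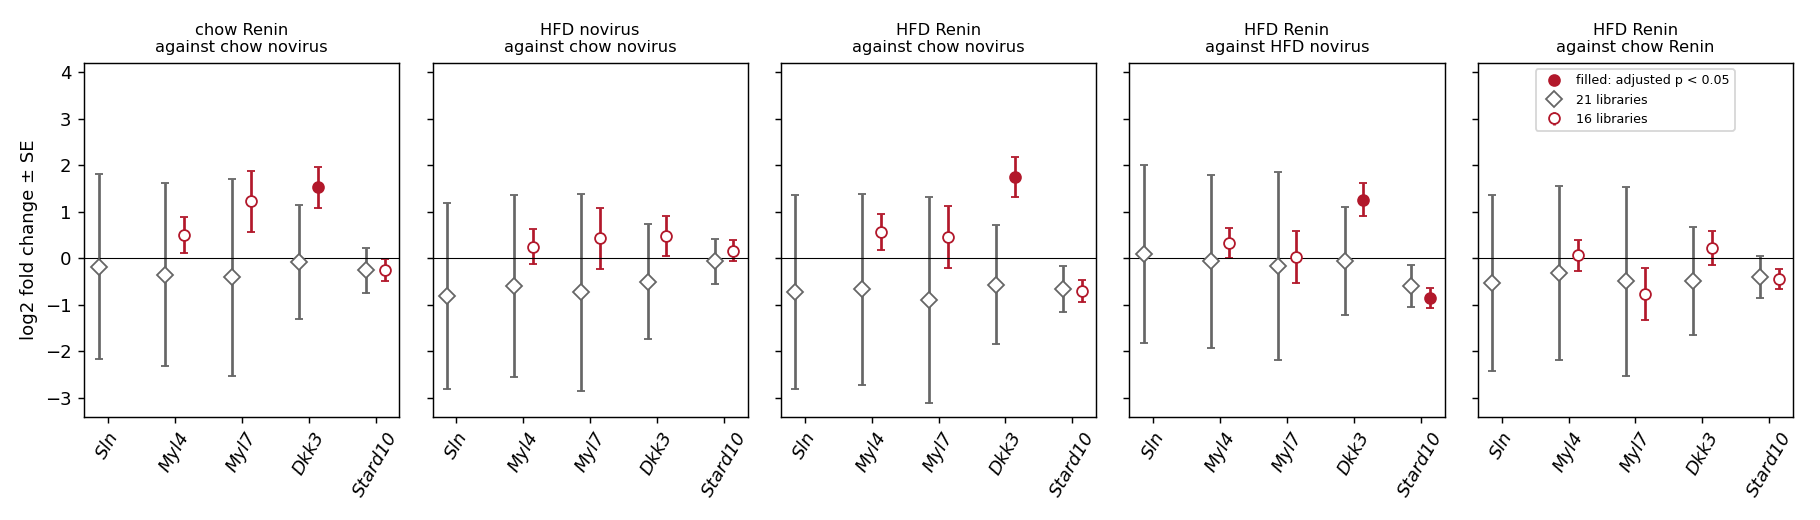
Log2 fold change with its SE for the tested genes in the comparisons of groups, from edgeR over all 21 libraries and over the 16 without the 5 high in Myl7. Error bars shrink without the 5, and Dkk3 in the 3 comparisons of Renin with novirus moves from -0.56 to -0.06 up to 1.26 to 1.75.

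Without the 5 libraries 15142 genes were tested, and Sln was not among them. The choice to leave these libraries out was made after the data were seen, and 3 chow novirus, 4 chow Renin, 5 HFD novirus and 4 HFD Renin libraries remained. Dkk3 then differed between Renin and novirus hearts. In chow novirus its levels were 0.898, 1.14 and 0.829 TPM, and in chow Renin 3.32, 2.74, 2.53 and 2.98 TPM. In HFD novirus they were 0.934, 1.17, 0.742, 0.755 and 2.72 TPM, and in HFD Renin 2.59, 2.42, 5.58 and 2.34 TPM. Both Renin groups lay above chow novirus with no overlap, and HFD novirus overlapped HFD Renin only through HFD novirus 6. The means were 0.954 ± 0.161 TPM (SD, n = 3), 2.89 ± 0.341 (n = 4), 1.26 ± 0.834 (n = 5) and 3.23 ± 1.57 (n = 4), in the same order of groups.

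In chow Renin against chow novirus the log2 fold change of Dkk3 over these 16 libraries was 1.53 (SE 0.44, edgeR adjusted p 0.0384), where 10.3% of genes were called and 14.2% had no overlap upwards. Over all 21 libraries it was -0.09 (SE 1.23, edgeR adjusted p 0.978). Against chow novirus, HFD Renin gave 1.75 (SE 0.44, edgeR adjusted p 0.0256) over the 16, with 8.34% of genes called and 11.2% without overlap upwards, and -0.56 over the 21. Against HFD novirus it gave 1.26 (SE 0.35, edgeR adjusted p 0.0377) over the 16, with 9.83% of genes called, and -0.06 over the 21. In these 3 comparisons 1, 1 and 2 of the 4 tested genes were called, Dkk3 each time and Stard10 in the last.

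For diet alone no difference of Dkk3 was called. Over the 16 libraries its log2 fold change in HFD novirus against chow novirus was 0.49 (edgeR adjusted p 0.741), where edgeR called 0.0% of genes and 1431 of 15142 had an unadjusted p under 0.05. The value in HFD Renin against chow Renin was 0.22 (edgeR adjusted p 0.747), with 16.2% of genes called. The interaction of diet and renin was -0.27 (edgeR adjusted p 0.855), with 7.17% of genes called.

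The calls of Dkk3 depended on single libraries. When each of the 16 was left out in turn besides the 5, the call in chow Renin against chow novirus held in 8 of 16 fits, with log2 fold changes of 1.44 to 1.65 and edgeR adjusted p up to 0.137. It was lost without any 1 of the 3 chow novirus and 4 chow Renin libraries, and without HFD novirus 2. The call in HFD Renin against chow novirus held in 13 of 16 fits (1.31 to 1.89, edgeR adjusted p up to 0.0995) and was lost without any 1 of the 3 chow novirus libraries. The call in HFD Renin against HFD novirus held in 5 of 16 fits, with log2 fold changes of 0.82 to 1.67 and edgeR adjusted p up to 0.0841. It was lost without chow novirus 1, chow Renin 4 or 5, any 1 of the 4 HFD Renin libraries, or HFD novirus 1, 2, 4 or 5. With the log2 level of Myl7 as a covariate over all 21 libraries, the 3 log2 fold changes were 0.50, 0.88 and 0.87, and none was called (edgeR adjusted p 0.457, 0.187 and 0.114), where 13.7, 10.0 and 13.2% of genes were.

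Stard10 was lower in HFD Renin than in HFD novirus over the 16 libraries. Its levels in HFD Renin were 7.77, 8.92, 16.7 and 9.60 TPM, and in HFD novirus 14.1, 14.6, 14.04, 17.1 and 25.2 TPM. Of the 4 HFD Renin libraries, 3 lay below every HFD novirus library, and HFD Renin 4, at 16.7 TPM, lay within them. The means were 10.8 ± 4.05 TPM (SD, n = 4) and 17.0 ± 4.77 TPM (n = 5), against 16.6 ± 0.409 (n = 3) in chow novirus and 14.98 ± 1.12 (n = 4) in chow Renin. On the log2 scale the difference was -0.86 (SE 0.21, adjusted p 0.0209 by edgeR), and over all 21 libraries -0.59 (edgeR adjusted p 0.448). It was called in 13 of 16 fits that left out 1 more library (-1.19 to -0.71) and lost without HFD Renin 1, 2 or 5, with edgeR adjusted p up to 0.0731.

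Against the chow groups the difference of Stard10 was not called over the 16 libraries, at -0.70 (SE 0.24, edgeR adjusted p 0.0857) against chow novirus and -0.44 (edgeR adjusted p 0.212) against chow Renin. The former was called in 1 of 16 fits, without HFD Renin 4. With the level of Myl7 as a covariate over all 21 libraries, Stard10 was called lower in HFD Renin against HFD novirus, by a log2 fold change of -0.73 (edgeR adjusted p 0.00736), where 13.2% of genes were called. With that covariate it was also called against chow novirus, at -0.65 (edgeR adjusted p 0.0269), where 10.0% of genes were called.

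**Figure D5:**
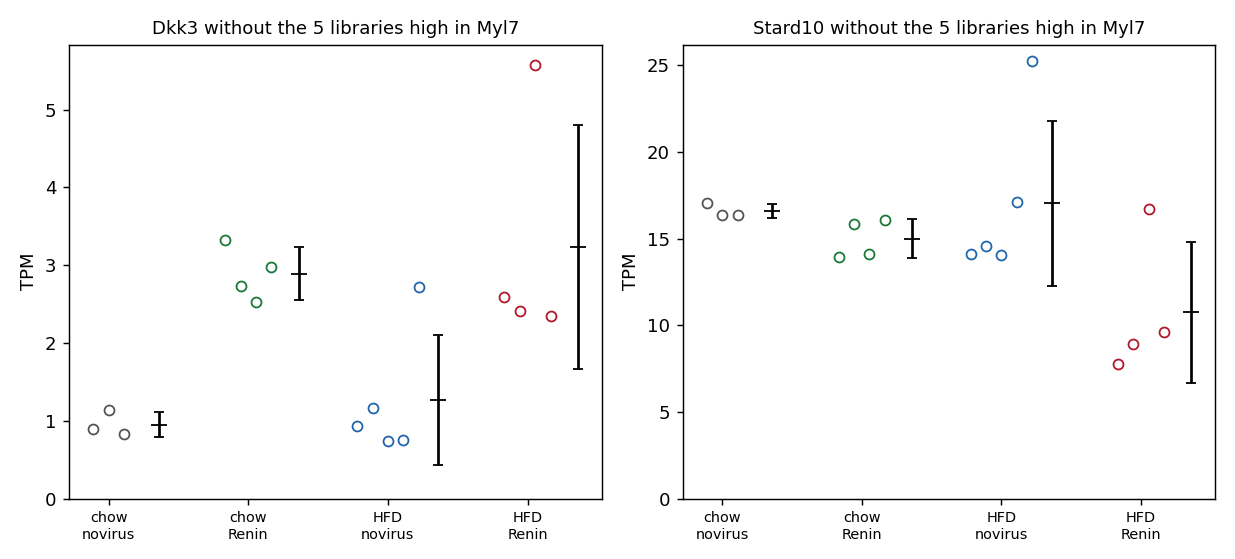
Level of Dkk3 and Stard10 (TPM) in the 16 libraries outside the 5 high in Myl7, one point per library, with the mean and SD of each group. Dkk3 is at 0.829 to 1.14 TPM in chow novirus and at 2.34 TPM or more in both Renin groups, and Stard10 is lowest in 3 HFD Renin libraries, at 7.77 to 9.60 TPM.

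Myl4 and Myl7 showed no called difference among the 16 libraries. The log2 fold changes of Myl4 over the 6 comparisons were -0.19 to 0.57, with SEs of 0.32 to 0.50 and a lowest edgeR adjusted p of 0.394. Those of Myl7 were -1.20 to 1.23, with SEs of 0.55 to 0.86 and a lowest edgeR adjusted p of 0.315. At 5 to 76 reads of Myl7 and 25 to 112 reads of Myl4 per library, and with these SEs, smaller differences were not detectable. The parts of depth and of the spread between libraries were not separated. The median log2 fold change of the 4 tested genes was 0.87 in chow Renin, 0.34 in HFD novirus and 0.52 in HFD Renin, each against chow novirus, beside -0.01, 0.01 and 0.01 over all genes. It was 0.17 in HFD Renin against HFD novirus and -0.19 against chow Renin, beside -0.01 in both over all genes.

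Markers of other tissues moved beside Dkk3. Of 12 central neuron and glia markers, 11 were called higher in chow Renin against chow novirus by edgeR, both over all 21 libraries, where 13.5% of all genes were called, and without the 5, where 10.3% were. Their summed level among the 16 was 89.2 to 145 TPM in chow Renin, 26.0 to 29.5 in chow novirus, 28.3 to 38.0 in HFD novirus and 27.5 to 38.1 in HFD Renin. None of the 12 was at 0 reads in every library, and Aqp4 was at 0 in 4. In HFD Renin, 0 of the 12 were called against chow novirus or HFD novirus. The summed level of the 9 sinoatrial and conduction markers among the 16 was 21.9 to 23.5 TPM in chow novirus, 28.7 to 32.7 in chow Renin, 23.2 to 27.5 in HFD novirus and 28.9 to 36.2 in HFD Renin, with no overlap of the Renin and novirus groups in either diet. Of these 9 markers edgeR without the 5 libraries called 3 higher in chow Renin against chow novirus, 2 in HFD Renin against chow novirus and 2 in HFD Renin against HFD novirus, with none lower, where 10.3%, 8.34% and 9.83% of all genes were called. The sum did not stand for most of the list in HFD Renin, since the median log2 fold change of the 9 was 0.23 in chow Renin and -0.03 in HFD Renin against chow novirus, and -0.21 in HFD Renin against HFD novirus. The summed level of the 8 intracardiac ganglion and sympathetic markers was at most 2.02 TPM in chow novirus, 2.40 to 4.86 in chow Renin, 1.01 to 1.30 in HFD novirus and 0.671 to 1.82 in HFD Renin. The part of these tissues in the higher Dkk3 of both Renin groups was not tested. Among the 16, the highest Dkk3 and Stard10 levels within the HFD groups were in HFD novirus 6 and HFD Renin 4, which were also the highest of their groups in summed great vessel smooth muscle markers (150 and 117 TPM), of which 0 of 5 were called. They were also highest in summed epicardial and mesothelial markers (9.57 and 12.4 TPM) and in summed blood markers (2677 and 2363 TPM). In Myl7 (3.35 and 4.52 TPM) and Myl4 (2.98 and 4.55 TPM) these libraries were again the highest of their groups among the 16, but not in Sln or Mybphl. Over the 16, group-centred r was 0.62 for Myl4 with Dkk3 and 0.79 for Dkk3 with Stard10. The part of these tissues and of atrial transcripts in Dkk3 and Stard10 was not tested.

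The pathway partners of the 6 genes were read from lists chosen by function. Around sarcolipin, 7 genes of the calcium pump and its regulators were tested. Pln, the gene of phospholamban, fell in HFD Renin by 0.32 on the log2 scale against chow novirus (edgeR adjusted p 0.0213) and by 0.27 against HFD novirus. Casq2, the gene of cardiac calsequestrin, which stores calcium, rose by 0.47 against HFD novirus (edgeR adjusted p 0.0125) and by 0.63 against chow Renin. Their directions and calls held without the 5 libraries, at -0.41 and -0.33 for Pln and at 0.51 and 0.63 for Casq2. In HFD Renin against chow novirus, HFD novirus and chow Renin, edgeR called 8.29%, 11.1% and 22.6% of all genes. Without the 5 libraries these shares were 8.34%, 9.83% and 16.2%. Sln itself was not called in any of these comparisons.

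Of 12 myosin light chain genes and partners outside the 6 genes, 3 rose and 3 fell in HFD Renin against chow novirus over all 21 libraries, where edgeR called 8.29% of all genes tested. The ventricular light chains Myl2 and Myl3 fell by 0.41 and 0.32 on the log2 scale (edgeR adjusted p 0.00922 and 0.0463). Myl1 and Myl12a rose by 1.03 and 0.54. All 6 genes were also called, in the same directions, without the 5 libraries. The atrial light chains Myl4 and Myl7 were not called with or without the 5 libraries, so only the ventricular pair had a called change there, and the difference between the pairs was not tested.

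Of 13 tested genes of BMP signalling, the pathway of Bmp10, 4 rose in HFD Renin against chow Renin and none was called in the other 5 comparisons by edgeR, which called 22.6% of all genes tested in HFD Renin against chow Renin. The 4 were the receptors and co-receptor Bmpr1a (0.30), Bmpr2 (0.16), Acvr2a (0.25) and Eng (0.35), on the log2 scale. Without the 5 libraries Bmpr1a and Bmpr2 kept the call, at 0.28 and 0.19, where 16.2% of all genes were called. Of 5 tested genes of the Dickkopf family and its receptors, Kremen1, a receptor of Dickkopf proteins, rose in HFD Renin by 0.54 against chow novirus (edgeR adjusted p 0.00698), 0.55 against HFD novirus and 0.56 against chow Renin. Without the 5 libraries these were 0.60, 0.57 and 0.59, each called. Of all genes, 8.29%, 11.1% and 22.6% were called in these comparisons, and 8.34%, 9.83% and 16.2% without the 5 libraries. Dkkl1, a related secreted protein with 101 reads over all libraries, rose by 1.80 in chow Renin against chow novirus (edgeR adjusted p 0.0204) and fell by 1.79 in HFD Renin against chow Renin (edgeR adjusted p 0.00494), in the fit of all 21 libraries. That fit called 13.5% and 22.6% of all genes in these comparisons. Dkkl1 did not pass the filter on low counts without the 5 libraries and was not tested there. Lrp5, a Wnt co-receptor, rose by 0.26 in HFD Renin against chow Renin, and by 0.24 without the 5 libraries, also called.

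Of 9 other genes with a START domain, 2 fell in chow Renin against chow novirus, Stard7 by 0.32 (edgeR adjusted p 0.00892) and Dlc1 by 0.31 on the log2 scale, where 13.5% of all genes were called. Stard7 was also called there without the 5 libraries, at -0.37, and Dlc1 was not. In HFD Renin against HFD novirus over all 21 libraries, Star, which carries cholesterol to mitochondria, rose by 0.68 (edgeR adjusted p 0.0139) and Stard3 fell by 0.30. There 11.1% of all genes were called. Star rose by 0.80 without the 5 libraries, where Stard10 was called, and Stard3 was not called. In that fit 9.83% of all genes were called.

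Of the 18 further atrial genes, edgeR over all 21 libraries called 3 higher and 2 lower in HFD Renin against HFD novirus, where 11.1% of all genes were called. It called 0 higher and 1 lower in chow Renin against chow novirus, in HFD Renin against chow novirus and in HFD Renin against chow Renin. There 13.5%, 8.29% and 22.6% of all genes were called. None was called in the other 2 comparisons. In HFD Renin against HFD novirus Nppa rose by 2.40 on the log2 scale (SE 0.64, edgeR adjusted p 0.024), Pam, which amidates peptides, by 0.71 and Clu by 0.39. In that comparison Kcnj3, a subunit of the acetylcholine-gated potassium channel, fell by 0.48. Chrm2, the muscarinic receptor, fell in chow Renin by 0.34 and in HFD Renin by 0.40, each against chow novirus (edgeR adjusted p 0.015 and 0.0147). Without the 5 libraries Nppa rose by 2.96 (edgeR adjusted p 0.0227) and Kcnj3 fell by 0.58 against HFD novirus, and Pam was called there at 0.84, while Clu was not. Of 15 tested there, 2 were called higher and 2 lower in that comparison, where 9.83% of all genes were called. In HFD Renin against chow novirus 0 were called higher and 3 lower, where 8.34% of all genes were called. Chrm2 kept both calls, at -0.39 in chow Renin and -0.48 in HFD Renin against chow novirus. Over these 16 libraries Fgf12 was called higher in chow Renin against chow novirus, by 1.76 (edgeR adjusted p 0.000721), where 10.3% of all genes were called. Most central neuron and glia markers were also called higher in that comparison, and their part in the rise of Fgf12 was not tested.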

How the data were processed

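Total RNA of 21 hearts was sequenced. The authors quantified transcripts with Salmon 1.10.2 against GRCm38 (mm10) and used DESeq2 1.40.2, per the submitters' processing notes; library layout and filters were not given in the sources used here. The authors deposited, per the file headers, estimated counts of reads and TPM for 119215 transcripts in each library. They also deposited 1 gene matrix of normalized signal, read here as counts scaled by size factors from its values, with log2 fold changes and adjusted p-values of their own comparison. Groups and replicate numbers came from the labels.

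Transcripts were matched to genes of the GENCODE M21 annotation (98% matched, and 0.854 to 0.925% of reads were unmatched), and estimated counts were summed per gene and rounded to whole numbers, since the files hold no raw counts. Levels are summed TPM. The test was edgeR 4.0.16 in R 4.3.3: filterByExpr (15216 of 23718 genes, holding 99.96% of reads), TMM scaling (factors 0.886 to 1.09), 1 quasi-likelihood fit over all 4 groups with robust estimation, Benjamini-Hochberg adjustment over all tested genes and a call at 0.05. The SE was taken as the size of the log2 fold change over the root of F. Alternatives were other scaling, no filter, DESeq2 1.42.0, a replicate block, only the groups compared, limma 3.58.1 on log2(TPM + 0.5 or 0.1) and on the deposited matrix, and each library left out. Added after seeing the data were fits without 5 libraries, without these and 1 more, and with Myl7 as a covariate. Of 46 pairs of libraries of a group none agreed within sampling noise (chi-square per degree of freedom 3.51 to 55.6). The script was tested on simulated data.

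The 6 genes and all lists were chosen with earlier results of these data known. All 6 genes are described. From other lists counts are given, with at most 4 called genes named for a list in a comparison, by size of change, and the 10 genes most like the mean of the 5 tested genes, and 3 most like each of these 5, are named by Pearson r of group-centred log2 CPM (prior count 2).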

Additional observations from a re-analysis of the deposited data

Results flagged for a closer look

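In 14 of 24 combinations of a gene and a group, the highest library lay farther from its nearest neighbour, as a share of the group's whole range, than Dixon's critical value for that group size. Chance picks out about 1 in 20 groups, but these values include those of Myl7 by which the 5 libraries were set apart, so the count is a description and no test. All 14 were 1 of those 5 libraries. In chow novirus 3 these were Sln at 59.0, Myl4 at 323, Myl7 at 699.5, Dkk3 at 33.0 and Stard10 at 47.5 TPM. In HFD novirus 3 they were Sln at 47.4, Myl4 at 298, Myl7 at 595, Bmp10 at 0.168 and Dkk3 at 29.6 TPM. In HFD Renin 3 they were Sln at 42.6, Myl4 at 242, Myl7 at 442 and Dkk3 at 16.3 TPM. In chow Renin no library was picked out. Its 2 high libraries are each other's neighbours in every gene but Bmp10, and in Bmp10 the gap fell short of the critical value.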

How the results depend on the processing

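Over the 30 tests of the 5 genes, the alternatives listed at the outset, other than leaving out a library, gave 0 calls in 291 fits and changed a sign in 53 of them. Leaving out each library gave 0 calls in 630 fits and changed a sign in 77. The number of the 5 genes called was 0 in every comparison with all libraries. It was 1, 1 and 2 without the 5 libraries in chow Renin against chow novirus, HFD Renin against chow novirus and HFD Renin against HFD novirus, and 1 and 1 in the latter 2 with Myl7 as a covariate. The log2 fold change of Dkk3 in these 3 comparisons, -0.09, -0.56 and -0.06 with all libraries, turned to 0.99, 0.60 and 0.85 in limma on log2(TPM + 0.5), 1.21, 0.81 and 1.07 on log2(TPM + 0.1) and 0.94, 0.65 and 0.81 on the deposited matrix. It was 1.53, 1.75 and 1.26 without the 5 and 0.50, 0.88 and 0.87 with the covariate. With libraries left out singly, or the 5 and 1 more, it ranged from -0.59 to 3.08, -1.40 to 2.60 and -0.90 to 2.10. Stard10 ranged from -1.20 to -0.14 in HFD Renin against chow novirus and from -1.19 to -0.32 against HFD novirus.

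With replicate number as a block, Dkk3 was 1.54, 1.02 and 0.89 in these comparisons, and genes called in HFD novirus against chow novirus went from 10 to 0. The labels do not state that equal numbers mark a pair. Of 28 same-number pairs 11 had a correlation above 0.1, and 7 of 21 libraries matched their own number best. The pairs of number 3 had the highest correlations, 0.22 to 0.42, and the highest of any other number was 0.16. Of the 5 libraries high in Myl7, 4 carry number 3, and whether this number marks anything they share was not tested.

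Genes called in HFD novirus against chow novirus (10) were 117 by DESeq2, 5 with only the groups compared, 108 and 111 by limma on log2(TPM + 0.5) and log2(TPM + 0.1), 16 on the deposited matrix, 0 without the 5, 4 with the covariate and 0 to 57 with a library left out. In HFD Renin against chow novirus (1262) they were 803 with only the groups compared, 696 and 723 by the 2 limma fits on TPM, and 565 to 1723 with a library left out. In HFD Renin against HFD novirus (1696) they were 549 with only the groups compared, 1092 on the deposited matrix, and 696 to 2394 with a library left out. On the deposited matrix they were 1046 in chow Renin against chow novirus (2048), 1921 in HFD Renin against chow Renin (3440) and 792 for the interaction (1589). With a library left out these 3 were 1512 to 2359, 2473 to 3784 and 1220 to 1951. The cause was not tested. Depth limits Bmp10 everywhere, and Sln and Myl7 outside the 5 libraries.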

Other observations

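Of the 83 genes with all 5 libraries above all 16, the 7 given here were chosen after their values were seen. Comp, a matrix protein of cartilage and tendon, was at 10.6 to 21.1 TPM in the 5 and 0.501 to 6.23 TPM in the 16. Chad, chondroadherin, was at 2.71 to 8.56 against 0.0624 to 1.76 TPM, and Cilp2, a cartilage matrix protein, at 0.930 to 2.29 against 0 to 0.275 TPM. Angptl7, a secreted angiopoietin-like protein, was at 2.78 to 8.24 against 0.175 to 1.58 TPM. Cidec, a lipid droplet protein, was at 0.504 to 3.91 against 0 to 0.437 TPM and Car3, a carbonic anhydrase, at 1.76 to 13.4 against 0.105 to 0.762 TPM. Gata5, a GATA factor, was at 0.179 to 0.465 against 0 to 0.158 TPM.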
